A study of Arabidopsis thaliana with 4 samples.

Results

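Open chromatin regions called in Bay-0 and Tsu-1 alone were compared with those called in Bur-0 and Est-1 alone, among 4 natural accessions of Arabidopsis thaliana. Overlapping or touching DNase I-seq peaks of the 4 lists were merged on the 5 nuclear chromosomes into 36153 regions. Of these, 695 held peaks of exactly Bay-0 and Tsu-1, and 544 held peaks of exactly Bur-0 and Est-1, 1239 in all. Members were chosen by the presence or absence of a peak call in each list, so membership and signal are described here and nothing is tested. Each accession had 1 library, made from whole seedlings 7 days old. Per the labels, stratification lasted 2 to 4 days and growth was on 0.8% agar. The seedlings received 16 h of light (22°C) and 8 h of darkness (20°C) a day. All 4 libraries came from plants with the same INTACT transgenes, UBQ10:NTF and ACT2:birA, which tag nuclei with biotin so that they can be captured. The promoters of 2 widely expressed genes, UBQ10 and ACT2, are named in the line label, and all cell types that carried the tag were captured together. In all samples the background label reads Col-0, which conflicts with the accession in each title, and the number of plants or lines behind each library is not stated in the labels.

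DNase I cuts DNA where nucleosomes are displaced, which in plants is mostly at promoters and at other places where transcription factors bind. A hypersensitive site marks DNA that can be reached by such factors, whether they raise or lower the activity of a gene. Natural accessions differ in sequence, in transposon content and in the factors they express, and each of these can change which sites are open or whether reads from a site can be placed on the reference.

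Nearly all deposited peaks (99.9% in each list) were 150 bp wide, and their starts fell on a 20 bp grid, so 10 bp was the smallest gap possible between neighbouring peaks. On the nuclear chromosomes the Bay-0 list held 28821 peaks, the Tsu-1 list 27388, the Bur-0 list 25298 and the Est-1 list 29699, and sequencing depth is unknown here. The authors' signal value of a peak is used only as a rank within its own list, a percentile with 100 at the top. Where a region has 2 ranks, the lower one is used to order regions. Intervals given with shares are Clopper-Pearson 95% intervals, exact for counting error and covering nothing else. To check the seedling label, marker genes were looked up, and the 4 leaf markers found had peaks in all 4 accessions, as did 3 of 5 root, 2 of 3 epidermis and guard cell and 2 of 3 vascular markers. The root markers WER and EXPA7 and the guard cell marker FAMA had peaks in some lists, and the vascular marker APL had none. Of the markers of other tissues, none of 4 seed genes and 1 of 3 flower genes had peaks in all 4 accessions, OLE1 and AP3 had peaks in some, and SESA2, SESA3, SESA4 and AG had none.

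Both sets were small parts of the calls. The Bay-0 and Tsu-1 set made up 1.92% of all regions and the Bur-0 and Est-1 set 1.5%. Of the other ways to pick a pair of lists, Bay-0 and Est-1 gave 1490 regions (4.12%), Est-1 and Tsu-1 894 (2.47%), Bur-0 and Bay-0 492 (1.36%) and Bur-0 and Tsu-1 453 (1.25%). The Bay-0 and Tsu-1 set thus exceeded its counterpart by 151 regions, and by 73 when every list was held to its 25298 strongest peaks. A few members rested on a thin overlap. In 3 Bay-0 and Tsu-1 members and 4 Bur-0 and Est-1 members the 2 peaks overlapped by only 10 bp, with lower ranks of 4.11 to 36.9 and 0.648 to 37.0. Just outside the rule, 1 neighbouring pair of single-accession regions of Bay-0 and Tsu-1 stood 10 bp apart, with a lower rank of 0.96. There were 4 such pairs of Bur-0 and Est-1, with lower ranks of 0.0455 to 19.4.

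Most members were weak peaks, and many of the strong ones stood beside peaks of the accessions that lacked the call. The lower rank had a median of 13.5 in the Bay-0 and Tsu-1 set (quartiles 4.68 and 31.6) and 16.8 in the Bur-0 and Est-1 set (quartiles 4.99 and 37.9). For the 19642 regions in all 4 lists, the lowest of 4 ranks had a median of 47.6. List by list, the median rank of members was 20.7 in Bay-0, 19.2 in Tsu-1, 24.5 in Bur-0 and 27.9 in Est-1. For the regions in all 4 lists these medians were 62.7, 60.5, 56.7 and 63.4 in the same order. With peaks up to 150 bp apart merged, the order of the sets by median lower rank turned, at 10.1 and 8.05. In 283 members of the first set (40.7%) and 213 of the second (39.2%) the lower rank was below 10. It exceeded 50 in 81 (11.7%) and 86 members (15.8%). The ranks of a member were similar in both of its lists, with a median absolute difference of 7.26 between Bay-0 and Tsu-1 and 9.35 between Bur-0 and Est-1, beside 6.66 and 10.4 for the same lists over the regions in all 4.

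A call of a lacking accession lay close to a part of the members. Of the Bay-0 and Tsu-1 members, 21.9% (18.9 to 25.1) had a Bur-0 or Est-1 peak within 150 bp. Of the Bur-0 and Est-1 members, 29.6% (25.8 to 33.6) had a Bay-0 or Tsu-1 peak that near. These intervals did not overlap, but they touched at 24.9% with lists of equal length and overlapped at distances of 50 bp (9.78% and 11.4%) and 300 bp (37.3% and 43.6%). The other pairs spanned a wider range, from 15.2% for Bay-0 and Est-1 and 21.5% for Est-1 and Tsu-1 to 28.9% for Bur-0 and Bay-0 and 34.0% for Bur-0 and Tsu-1, so the pairs with Bur-0 had the higher shares. Both lacking accessions had a peak within 150 bp at 88 members of the first set (12.7%, 10.3 to 15.4) and at 119 of the second (21.9%, 18.5 to 25.6). The lower rank of these members had a median of 43.0 and 45.1. Where no lacking accession had a peak within 1000 bp, at 232 members (33.4%) and 162 members (29.8%), the median lower rank was 8.27 and 5.71. The other pairs had the same fall, from medians of 41.2 to 48.2 down to medians of 7.06 to 9.14. The neighbour of a member with both lacking accessions close by was a region of all 4 lists in 42 of 88 and 58 of 119 cases, and a region of only the lacking accessions in 31 and 34.

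**Figure D1:**
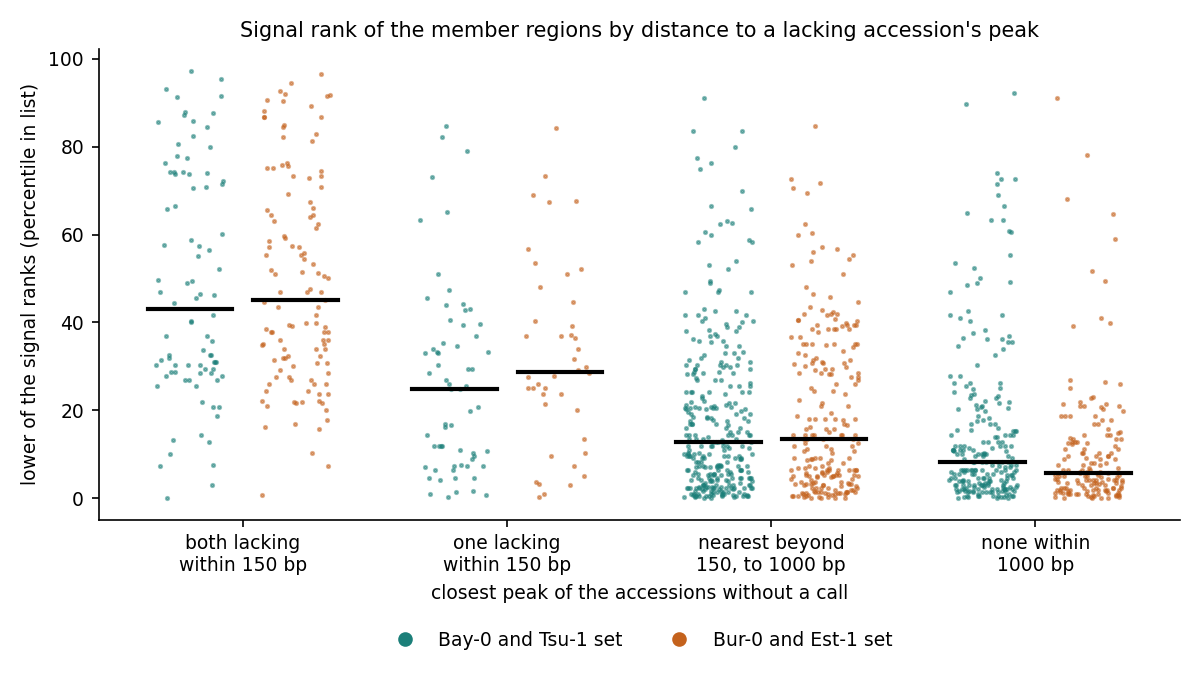
Lower signal rank (percentile in list, vertical axis) of each member region, 1 point per region, by the distance to the nearest peak of the accessions without a call; black bars are medians. In both sets the median fell from above 40 where both lacking accessions had a peak within 150 bp to below 10 where neither had one within 1000 bp.

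With the full lists, members of both sets were at gene ends less often than regions of all 4 lists. A region was placed by its midpoint, first at a gene end (within 400 bp of where a protein-coding gene starts or stops), then in a gene interior, in a flank (up to 1000 bp from the gene) or distal. Unless another type is named, the nearest gene of a region is its nearest protein-coding gene. Gene ends took 48.3% (44.6 to 52.1) of the Bay-0 and Tsu-1 set, 45.8% (41.5 to 50.1) of the Bur-0 and Est-1 set and 57.0% (56.3 to 57.7) of the regions in all 4 lists. Distal sites took 26.8% (23.5 to 30.2), 24.6% (21.1 to 28.5) and 20.2%, and gene interiors 7.91% (6.02 to 10.2), 9.19% (6.9 to 11.9) and 5.86% (5.54 to 6.2). Between the sets these intervals overlapped. With lists of equal length the gene-end share of the Bay-0 and Tsu-1 set rose to 54.6%, and with a gene end of 1000 bp the order of the sets changed, at 69.6% and 71.5%. A low gene-end share was not particular to these sets. It was 46.5% for Est-1 and Tsu-1, 47.5% for Bur-0 and Tsu-1 and 49.4% for Bur-0 and Bay-0. Only the regions of Bay-0 and Est-1 alone differed, at gene ends in 63.3% (60.8 to 65.7) of cases.

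Gene-poor DNA held a larger share of both sets than of the regions in all 4 lists. Bins of 100 kb with fewer than 15 protein-coding genes held 5.9% (4.27 to 7.92) of the Bay-0 and Tsu-1 set, 4.23% (2.7 to 6.28) of the Bur-0 and Est-1 set and 2.41% (2.2 to 2.63) of the regions in all 4 lists. The share over all regions, 3.47%, lay inside the interval of the Bur-0 and Est-1 set, and the other pairs had 2.01 to 5.49%. Among members with no lacking accession's peak within 1000 bp, the share was 29 of 232 (12.5%, 8.53 to 17.5) in the first set and 9 of 162 (5.56%, 2.57 to 10.3) in the second, with overlapping intervals. In this subset 52.2% (45.5 to 58.7) of the Bay-0 and Tsu-1 members and 61.7% (53.8 to 69.2) of the Bur-0 and Est-1 members were at gene ends, again with overlapping intervals. A pseudogene was the nearest gene of any type for 26 Bay-0 and Tsu-1 members (3.74%, 2.46 to 5.43) and 16 Bur-0 and Est-1 members (2.94%, 1.69 to 4.73), against 1.11% of the regions in all 4 lists and 1.78% of all regions. The last of these lay inside the interval of the Bur-0 and Est-1 set. The other pairs had 1.48% (Bay-0 and Est-1) to 4.07% (Bur-0 and Bay-0). By chromosome, the Bay-0 and Tsu-1 set leaned to chromosome 1, with 30.9% (27.5 to 34.5) of its members against 26.7% of all regions, and held less of chromosome 3, 15.7% (13.1 to 18.6) against 19.0%.

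**Figure D2:**
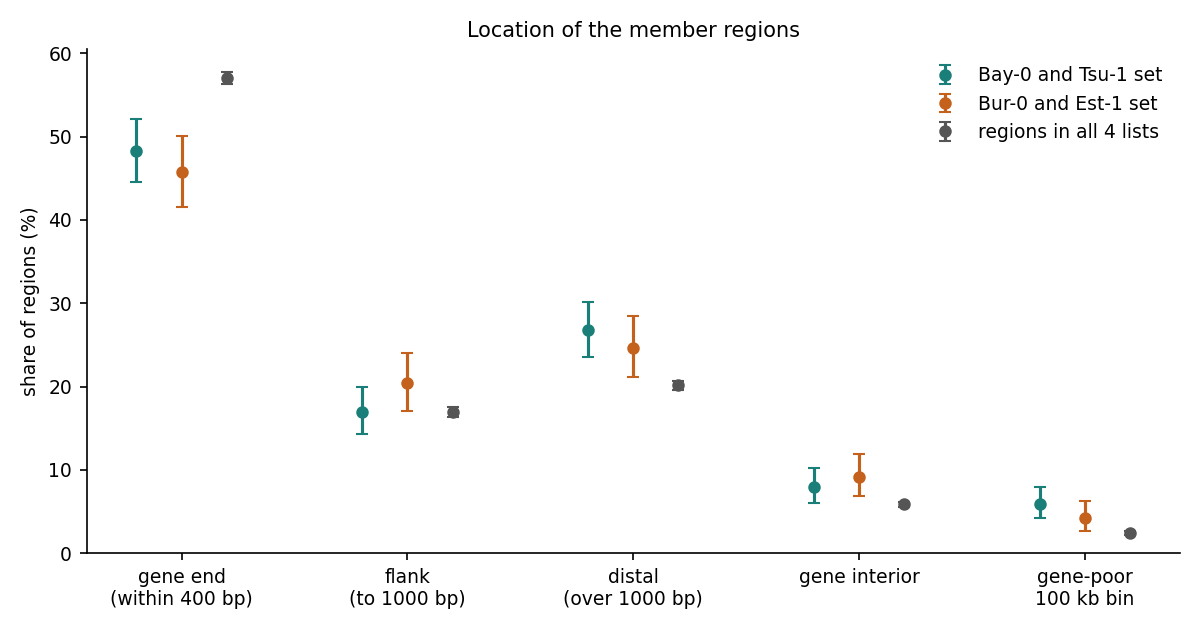
Share of regions (percent, vertical axis) in each location for both sets and for the regions in all 4 lists, with exact 95% intervals; gene-poor bins cut across the other 4 classes. Both sets lie below the regions in all 4 lists at gene ends and above them at distal sites.

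Some opposite calls were close neighbours. In 36 places a Bay-0 and Tsu-1 member and a Bur-0 and Est-1 member were neighbours no more than 150 bp apart, which involved 35 members of the first set (5.04%, 3.53 to 6.93) and 36 of the second (6.62%, 4.68 to 9.04). Such pairs were not peculiar to these accessions, since the other 2 ways to split the 4 lists into opposite pairs gave 39 each. The midpoints of the paired regions lay 160 to 310 bp apart, with a median of 230 bp, the median gap was 50 bp, and 6 pairs were separated by 10 bp. The Bay-0 and Tsu-1 region had the lower coordinate in 15 of the 36. All 4 ranks were above 50 in 17 pairs and above 70 in 11. When peaks up to 150 bp apart were merged, no such pair could remain, and when peaks had to overlap by at least 75 bp to be merged there were 211.

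The leading pair stood between 2 genes for pectin methylesterases, PME2 and PME1, enzymes that remove methyl groups from cell wall pectin. At the end of PME2, the Bay-0 and Tsu-1 region (TAIR10 chromosome 1, 20100901 to 20101050) had a signal of 559 in Bay-0 and 377 in Tsu-1, at ranks of 98.4 and 97.3. The Bur-0 and Est-1 region began 50 bp further on, 49 bp from PME1 (20101101 to 20101250), with a signal of 448 in Bur-0 and 542 in Est-1, at ranks of 96.9 and 96.5. So the strongest member of each set belonged to the same pair, and all 4 accessions had a strong call in this stretch.

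The next pairs stood near 2 transcription factor genes. Near MYB87, which encodes a MYB transcription factor, the opposite regions were 30 bp apart and ranked 93.1 in Bay-0, 93.7 in Tsu-1, 92.7 in Bur-0 and 94.9 in Est-1. Both lay at a distance from the gene, at 1875 and 2055 bp. Near AT1G35560, listed under the synonym TCP23 as a TCP domain protein, the gap was also 30 bp and the ranks were 88.4 in Bay-0, 87.7 in Tsu-1, 95.1 in Bur-0 and 91.5 in Est-1. AT1G23710 and AT1G79150, which carry no symbol, had pairs at gene ends with lowest ranks of 87.1 and 85.8.

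Genes of several kinds were nearest to the pairs that followed. The regions near NRT1.7, a nitrate transporter of the phloem, were 1237 and 1437 bp from the gene and 10 bp apart, at ranks of 76.2 in Bay-0, 82.1 in Tsu-1, 82.3 in Bur-0 and 93.8 in Est-1. A pair nearest to PIP5K2, a phosphatidylinositol phosphate kinase gene, and AT1G77730 had a lowest rank of 74.3, and a pair nearest to AT4G37409 had 74.2. ARL, an ARGOS-like gene of organ growth, had a lowest rank of 73.4 over its pair. At RR3, a type-A response regulator that dampens cytokinin signalling, it was 73.3. At UGT85A1, a glucosyltransferase that acts on the cytokinin zeatin, it was 71.4, with both regions inside the gene. In the clock gene PRR7, a transcriptional repressor, the opposite regions were 50 bp apart and weaker, with ranks of 35.3 in Bay-0, 31.0 in Tsu-1, 33.9 in Est-1 and 39.1 in Bur-0.

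**Figure D3:**
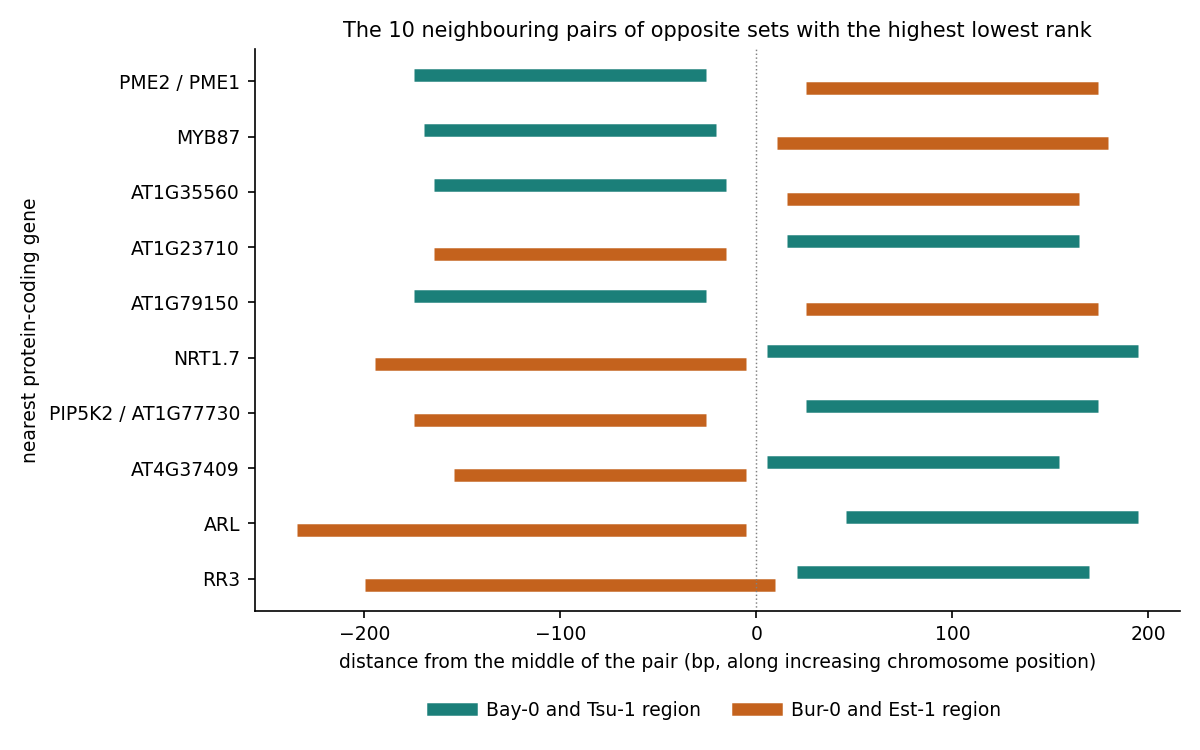
The 10 pairs of opposite neighbouring regions whose lowest rank was highest, drawn to scale as distance in bp from the middle between the 2 region midpoints, 1 row per pair and labelled by nearest protein-coding gene. Each pair shows a Bay-0 and Tsu-1 region beside a Bur-0 and Est-1 region with a gap of 10 to 50 bp, in either order.

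Among the strongest Bay-0 and Tsu-1 members, 7 had both ranks above 90. Besides PME2 and MYB87, they were nearest to TEM1, GCR1, AT4G23860, AT1G07270 and CIPK1. The region near TEM1, a RAV-family repressor of the florigen gene FT, lay 1627 bp away (chromosome 1, 8984941 to 8985150) and had a signal of 447 in Bay-0 and 399 in Tsu-1, at ranks of 95.4 and 97.9. Bur-0 and Est-1 each had a peak 50 bp from it. The AT4G23860 region (ranks 91.6 and 96.3) and the AT1G07270 region (93.7 and 91.4) each had a Bur-0 or Est-1 peak 10 bp away. CIPK1, a kinase activated by calcineurin B-like calcium sensors, had a region 240 bp from the gene with ranks of 91.1 and 95.2 and the nearest Bur-0 and Est-1 peaks at 290 bp. Of the first 10, another 2 were nearest to AT2G12405 and AT1G09250, the latter listed as AIF4, and the tenth was the AT1G35560 region above.

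The GCR1 region was the strongest Bay-0 and Tsu-1 member with no call of the other accessions close by. It stood on chromosome 1 at 17823621 to 17823770, with a signal of 386 in Bay-0 (rank 92.1) and 324 in Tsu-1 (rank 94.9), and the nearest Bur-0 and Est-1 peaks were 1610 bp away. GCR1, a gene for a G-protein-coupled receptor-like protein, was 4183 bp away, and the microRNA gene MIR161 was nearer at 1915 bp. The next by rank under this condition was the AT2G12405 region in a gene-poor bin, with a signal of 354 in Bay-0 and 331 in Tsu-1 (ranks 89.7 and 95.3), and lacking peaks at 1190 and 1170 bp. Regions nearest to AT5G40640, AT1G34420, AT1G35630, AT5G48110, AT3G44510 and HIRA, a histone chaperone gene, followed with lower ranks of 66.6 to 74.1.

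Of the Bur-0 and Est-1 members, 9 had both ranks above 90. With PME1, AT1G23710, MYB87 and AT1G35560 from the pairs above, these included regions near AT5G65660 (ranks 91.9 in Bur-0 and 94.9 in Est-1) and AT1G25550 (91.7 and 94.5), whose nearest Bay-0 and Tsu-1 peaks were 110 to 130 bp away. AT5G65660 was 1041 bp from its region, and the noncoding RNA gene AT5G09415 was nearer at 687 bp. The region near MDAR4, a monodehydroascorbate reductase that regenerates ascorbate, ranked 90.6 in Bur-0 and 92.1 in Est-1, with a Bay-0 peak 130 bp and a Tsu-1 peak 70 bp away. BRG3, a RING-type ubiquitin ligase gene, had a region with ranks of 91.1 and 90.4, and both lacking accessions had a peak 90 bp away. This region was 759 bp from BRG3, and the noncoding RNA gene AT3G02605 was nearer at 477 bp. The tenth region had IGMT4, an indole glucosinolate O-methyltransferase gene, as its nearest protein-coding gene at 465 bp, but overlapped the noncoding RNA gene AT1G05633. Its ranks were 89.2 and 92.5, with lacking peaks at 50 and 30 bp.

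HIPP22 stood apart among these. This gene of the heavy metal-associated isoprenylated protein family had a Bur-0 and Est-1 region 624 bp away (chromosome 1, 8138301 to 8138490) with a signal of 314 in Bur-0 (rank 91.1) and 588 in Est-1 (rank 97.6). The nearest Bay-0 and Tsu-1 peaks were 1890 and 1950 bp away. A second member 104 bp from the gene (8138861 to 8139010) had a signal of 133 in Bur-0 and 189 in Est-1, at ranks of 51.6 and 55.7. The other leading members with no lacking peak within 1000 bp were nearest to AT4G32590, FBH2, AT2G01510, MSRA5, AT1G52130 and SAUR26. The AT4G32590 region had ranks of 78.1 (Bur-0) and 79.4 (Est-1). The region nearest to FBH2, a basic helix-loop-helix activator of CONSTANS, had ranks of 68.0 and 86.9. It lay 2018 bp from FBH2, and the noncoding RNA gene AT4G05700 was nearer at 582 bp. At MSRA5, a methionine sulfoxide reductase, the ranks were 68.3 and 58.9. SAUR26 was 2693 bp from its region, and the transcribed pseudogene AT3G03855 was nearer at 51 bp.

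Bay-0 and Tsu-1 members followed one another along the chromosomes more often than their share of all regions. The next region on the chromosome belonged to the same set for 40 of 695 members (5.76%, 4.14 to 7.76), against the 1.92% of all regions that the set makes up. In the Bur-0 and Est-1 set it was 13 of 544 (2.39%, 1.28 to 4.05) against 1.5%. Bay-0 and Est-1 regions gave 6.04% and Est-1 and Tsu-1 regions 3.91%, while Bur-0 and Bay-0 gave 0.813% and Bur-0 and Tsu-1 0.883%. In runs, the Bay-0 and Tsu-1 set had 25 of 2 regions, 6 of 3 and 1 of 4, and the Bur-0 and Est-1 set had 13 of 2 and none longer. Longer runs were not particular to Bay-0 and Tsu-1. Bay-0 and Est-1 had 68 of 2 and 11 of 3, and Est-1 and Tsu-1 had 28 of 2, 2 of 3 and 1 of 4. Bur-0 and Bay-0 and Bur-0 and Tsu-1 each had 4 of 2. Without members in gene-poor bins the share followed by the same set was 5.2% for Bay-0 and Tsu-1 and 2.5% for Bur-0 and Est-1.

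**Figure D4:**
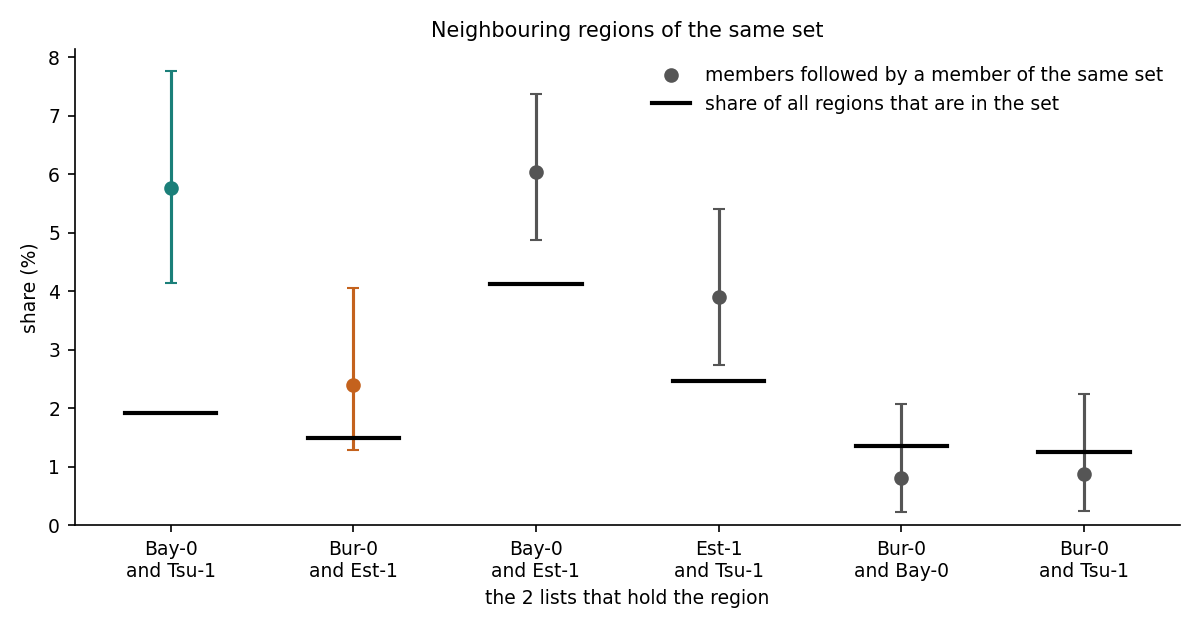
Share (percent, vertical axis) of the regions of each pair of lists whose next region belongs to the same pair, as points with exact 95% intervals; horizontal bars give the share of all regions in that set. The interval for Bay-0 and Tsu-1 lies above its bar, and that for Bur-0 and Est-1 spans its bar.

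By definition no Bur-0 or Est-1 peak stands between the members of a Bay-0 and Tsu-1 run. Only the distance to such peaks beyond the ends of a run was left open. On chromosome 5, the 4 members nearest to AT5G28350, AT5G28400, AT5G28410 and AT5G28442 (10319921 to 10369470) lay inside a stretch (10299251 to 10450100) with no peak of either lacking accession. Their signals were 81, 168, 70 and 225 in Bay-0 and 58, 87, 47 and 137 in Tsu-1, so the last of them was the strongest in both lists, at ranks of 71.1 and 63.3. A gene-poor stretch of 396 kb on chromosome 2 held 4 members around AT2G11035, AT2G11215 and MGDC, a monogalactosyldiacylglycerol synthase gene, with lower ranks of 4.67 to 52.4. Both stretches also held 2 regions of Bay-0 alone and 0 of Tsu-1 alone.

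CYP71B25, a cytochrome P450 gene, had 3 members in a row within 1.11 kb (chromosome 3, 9626001 to 9627110). They had signals of 189, 140 and 201 in Bay-0 and 86, 84 and 137 in Tsu-1, with ranks of 34.7 to 65.2. The nearest peak of Bur-0 or Est-1 to any of them was 4910 bp away. Other runs of 3 stood at AIG1, a gene named for its induction by the bacterial effector avrRpt2 (1.63 kb on chromosome 1), at ZIFL2, a transporter gene of the zinc-induced facilitator-like family (1.95 kb on chromosome 3), at AT5G27120 (3.85 kb on chromosome 5) and across TT10, a laccase-like gene of seed coat flavonoid oxidation, and AT5G48110 (10.4 kb on chromosome 5). Ranks at AT5G27120 stayed between 2.56 and 4.67, while those at TT10 and AT5G48110 reached 74.2.

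Stretches free of both lacking accessions that held at least 2 members numbered 37 for the Bay-0 and Tsu-1 set, with 83 members, and 22 of them were at least 10 kb long. For the Bur-0 and Est-1 set there were 15 with 30 members, of which 5 reached 10 kb. Such stretches were not counted for the other pairs. A 38.7 kb stretch of chromosome 3 held the AT3G44510 and HIRA members, with signals of 273 and 208 in Bay-0 and 153 and 146 in Tsu-1. Genome sequence of the accessions was not analysed here, so an absent call in such a stretch does not show that its chromatin was closed.

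Few genes had a member in their windows, and fewer had members of both sets. Windows ran from 1000 bp outside to 200 bp inside either end of a protein-coding gene. Of 27432 genes, 631 (2.3%) had a Bay-0 and Tsu-1 member, 531 (1.94%) a Bur-0 and Est-1 member and 54 (0.197%) both. By the lowest rank over both sets, the leading genes with both were PME2, PME1, AT1G35560, AT1G23710, AT1G79150, ARL, RR3 and AT1G73740, each with the neighbouring pair described above or, at AT1G73740, 2 Bur-0 and Est-1 regions on either side of 1 Bay-0 and Tsu-1 region. DEAR2, an AP2-type factor with DREB and EAR motifs, was among the 3 genes nearest to 3 Bur-0 and Est-1 members. The strongest of these (chromosome 5, 26808101 to 26808310) had a signal of 538 in Bur-0 and 371 in Est-1, at ranks of 98.4 and 86.8, and peaks of both lacking accessions 50 bp away.

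Among the 373 genes found of 19 lists, 13 (3.49%) had a Bay-0 and Tsu-1 member and 14 (3.75%) a Bur-0 and Est-1 member, beside the 2.3% and 1.94% of all protein-coding genes. These counts fell to 4 and 8 with the stronger 50% of each list and to 8 and 7 with no lacking peak within 300 bp. The first was 7 with windows from 500 bp outside to 100 bp inside and 23 with whole genes and 2000 bp on each side, and the second was 9 with peaks up to 150 bp apart merged. A further region called in all 4 accessions stood in the windows of 11 of the 13 and 11 of the 14, the exceptions being WER and AP3, and RGA1, EXPA18 and SAUR19. With 1 library per accession no test compares these counts. None of the 26 photosynthesis genes, 20 NLR immune receptor genes or 17 seed and embryo genes had a member of either set. Nor did the lists of meristem and leaf, epidermis and stomata, nutrient transport and housekeeping genes. At the 2.3% and 1.94% of all protein-coding genes, lists of such sizes would often hold none.

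Auxin genes were 4 of the 13 list genes with a Bay-0 and Tsu-1 member, out of 25 on that list (16.0%), and 1 (4.0%) had a Bur-0 and Est-1 member. Over all protein-coding genes the shares were 2.3% and 1.94%, and each list count rests on few genes. At PIN3, an auxin efflux carrier of tropic growth, the Bay-0 and Tsu-1 region lay 212 bp from the gene, with a signal of 154 in Bay-0 and 110 in Tsu-1 (ranks 49.7 and 51.1) and both lacking accessions at 110 bp. YUC8, an enzyme of auxin synthesis, had a region 19 bp from the gene with a signal of 112 in Bay-0 and 93 in Tsu-1 (ranks 29.3 and 41.1). IAA6 and IAA29, which encode Aux/IAA repressors, had regions with lower ranks of 14.3 and 6.44. The Bur-0 and Est-1 region belonged to GH3.2, an enzyme family that conjugates auxin to amino acids, with a signal of 121 in Bur-0 and 146 in Est-1 (ranks 45.4 and 40.3).

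Of the 30 genes of other hormones, 1 (3.33%) had a Bay-0 and Tsu-1 member and 4 (13.3%) a Bur-0 and Est-1 member, beside 2.3% and 1.94% of all protein-coding genes. EBF1, an F-box protein that targets the ethylene factor EIN3, had a region with a signal of 179 in Bur-0 and 259 in Est-1 (ranks 69.2 and 72.1), but Bay-0 and Tsu-1 peaks lay 70 and 50 bp away. RGA1, a DELLA repressor of gibberellin responses, had one with a signal of 190 and 199 (ranks 72.4 and 58.6), with both lacking accessions at 50 bp. BZR1, a brassinosteroid-regulated factor, had ranks of 52.1 and 48.0, with the other accessions' peaks at 410 bp. The region at ABI1, a phosphatase of abscisic acid signalling, was weak (ranks 12.6 and 6.99), with no lacking peak within 2030 bp. The Bay-0 and Tsu-1 region was 833 bp from BIN2, a kinase that represses brassinosteroid responses, and ranked 17.2 and 11.0. Its nearest protein-coding gene was RPL16B.

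The light-signalling list of 21 genes had 1 gene with a member in each set. Of 20 clock genes, PRR7 and PRR9 had a Bay-0 and Tsu-1 member and PRR7 a Bur-0 and Est-1 member, and of 26 flowering-time genes 1, FRI, had a Bur-0 and Est-1 member. CRY1, a blue-light receptor, had a Bay-0 and Tsu-1 region (signal 116 and 94, ranks 31.4 and 41.8). Its relative CRY2 had a Bur-0 and Est-1 region (signal 82 and 86, ranks 18.1 and 14.3), with the nearest lacking peaks at 1690 bp in Bay-0 and 1670 bp in Tsu-1. PRR9, a morning-phased relative of PRR7, had a weak Bay-0 and Tsu-1 region at ranks of 5.25 and 9.14, which was 262 bp away and nearer to ZAT. FRI, known for natural variation in flowering time as an activator of the repressor FLC, had a Bur-0 and Est-1 region 331 bp away (chromosome 4, 268321 to 268570). Its signal was 168 in Bur-0 and 274 in Est-1 (ranks 65.7 and 74.7), a Bay-0 peak stood 50 bp and a Tsu-1 peak 30 bp from it, and its nearest gene was KEA2, an ion antiporter of the chloroplast.

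Stress, immune and growth genes made up most of the rest. The Bur-0 and Est-1 set had a region 921 bp from MPK3, a mitogen-activated protein kinase of defence (signal 158 and 255, ranks 62.3 and 71.3, lacking peaks at 930 bp). This region overlapped the noncoding RNA gene AT3G45638. Another was near SNRK2.6, the kinase of stomatal closure also listed as OST1 (signal 181 and 134, ranks 69.8 and 34.8). A Bay-0 peak stood 90 bp and a Tsu-1 peak 70 bp from the SNRK2.6 region. At COR47, a cold-induced dehydrin, a Bur-0 and Est-1 region in the window was 419 bp from the gene (ranks 57.7 and 40.7) and nearer to AT1G20430. Inside the gene, outside the windows, a stronger Bay-0 and Tsu-1 region (ranks 69.2 and 55.2) stood 70 bp from a Bur-0 and Est-1 region (69.5 and 61.6). The Bur-0 and Est-1 set also had regions near CESA6, a cellulose synthase subunit (19.4 and 23.2), EXPA18, a root hair expansin (16.6 and 14.8), and SAUR19, an auxin-induced growth gene (45.9 and 12.3). The EXPA18 region was 133 bp from that gene and nearer to AT1G62978. The Bay-0 and Tsu-1 set had regions at CERK1, the chitin receptor kinase (ranks 16.7 and 14.3), and at ERD10, a dehydrin gene (24.7 and 7.39). An Est-1 peak stood 90 bp and a Bur-0 peak 850 bp from the ERD10 region. WER, a regulator of epidermal cell fate in the root, CYP79B2, an enzyme of indole glucosinolate synthesis, and AP3, a floral homeotic gene, had Bay-0 and Tsu-1 regions whose ranks were below 10 in both lists.

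**Figure D5:**
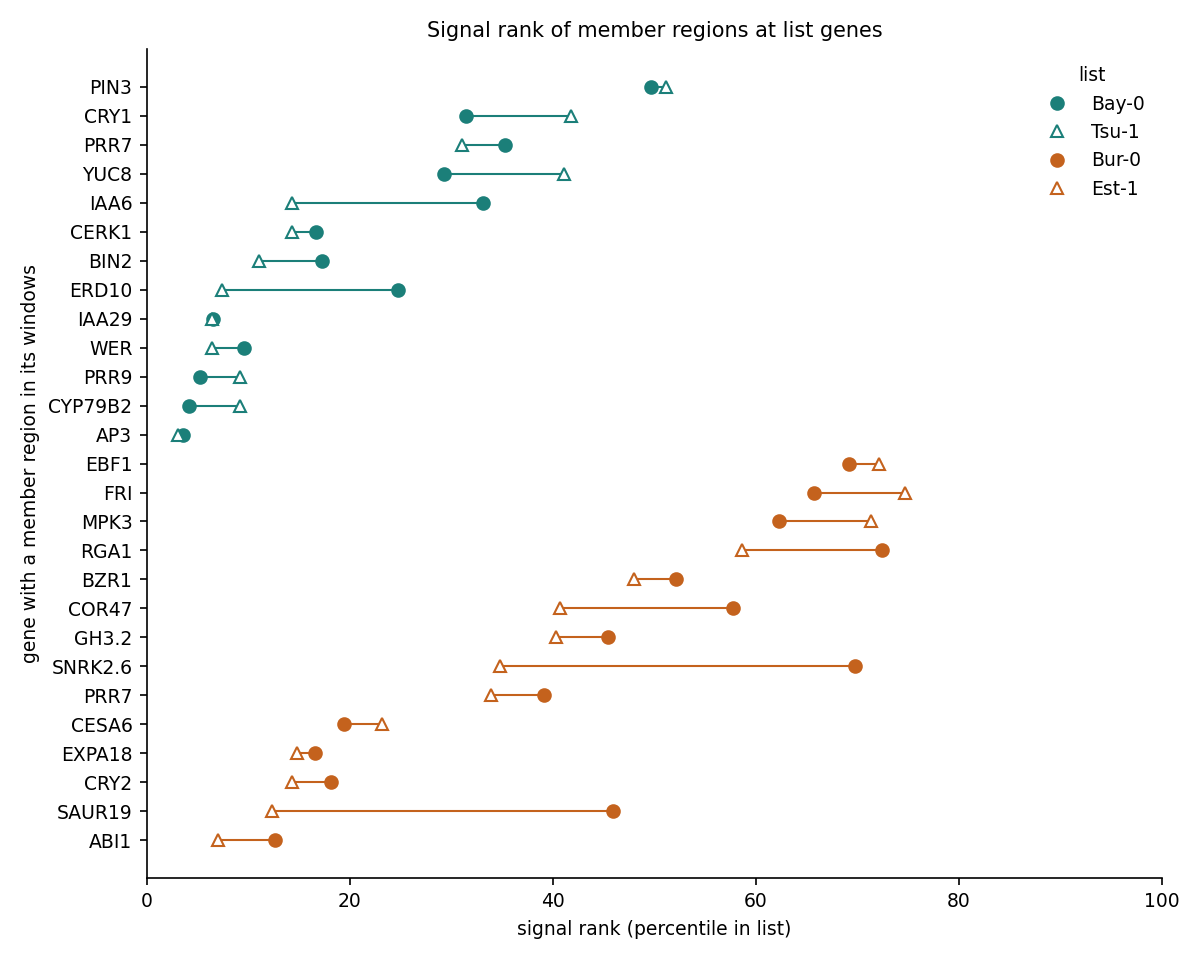
Signal rank (percentile in list, horizontal axis) of each member region at a gene of the fixed lists, with 1 marker per list that called it and a line joining the 2 lists. Bay-0 and Tsu-1 regions reached ranks near 50 at PIN3, and Bur-0 and Est-1 regions ranks above 50 in both lists at EBF1, FRI, MPK3 and RGA1.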

How the data were processed

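DNase I-seq peak lists of seedlings of 4 accessions were used, 1 library each, grouped by source label; Tsu-1 of the sample labels is Tsu-0 in the series text. Nuclei were digested with DNase I (45 units, 3 minutes, 25°C), per the labels' protocols. Per the submitters' processing notes, Bowtie 0.12.7 and TAIR10 were used. The sources used here do not state how peaks were called, with which threshold or from how many reads. The deposited lists hold the authors' signal value for each peak, a whole number with no scaling stated, and a deposited −log10 p, used only for ties and as an alternative ranking. The Est-1 list holds exactly 30000 peaks with organelles included, with no limit on list length stated.

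Regions, ranks, distances and gene windows were computed with Python 3.11.15, numpy 2.4.6, pandas 2.3.3 and scipy 1.17.1, with figures from matplotlib 3.10.9, and were tested on simulated data. Genes came from the RefSeq TAIR10.1 table, used for names and distances. On each chromosome the region counts at gene ends were highest at a shift of at most 100 bp, so both builds share coordinates to about that precision. The table gives no strand, so gene starts and ends were not told apart. The planned promoter motif count was not run, and sequence was not analysed here.

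Members and gene lists were chosen with earlier results of these data known. Of 404 list names, 373 genes were found. Named per set were the 10 members with the highest lower rank, the 8 highest with no lacking peak within 1000 bp, runs of at least 3 regions, list genes with a member, and the 8 leading genes with both sets; lower-ranked opposite pairs, DEAR2 and the stretches without runs were picked once values had been seen. Alternatives changed merging, list length, distances, windows and ranking.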

Additional observations from a re-analysis of the deposited data

How the results depend on the processing

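Of 113 values recomputed under 17 alternatives, 67 kept within their interval or within 1.5 times, 46 moved, and no difference in the number of regions between the sets turned. Values are given for the Bay-0 and Tsu-1 set first. Merging peaks up to 150 bp apart left 0 and 0% with a lacking peak close by and 0 opposite pairs, by construction, and median lower ranks of 10.1 and 8.05. An overlap of at least 75 bp gave 211 opposite pairs and a difference of 230 regions between the sets. Lists of equal length gave a gene-end share of 54.6% in the first set and a difference of 73 regions. The stronger 50% of each list gave 401 and 281 regions, 379 and 277 genes and 18 opposite pairs, with 15% of the first set close to a lacking peak. The median lower ranks were then 12.7 and 10.1. Members with no lacking peak within 300 bp numbered 436 and 307, at 391 and 306 genes, with medians of 9.14 and 6.99, and 8.03% of the first set was followed by its own kind. Gene ends of 200 bp took 36.3 and 33.1%, of 1000 bp 69.6 and 71.5%, and those of every gene type 54.8 and 52.2%. Bins with fewer than 10 genes held 2.3 and 2.21%. A lacking peak lay within 300 bp of 37.3 and 43.6% and within 50 bp of 9.78 and 11.4%. The mean of both ranks had medians of 21.0 and 27.4. Whole genes with 2000 bp on each side gave 1004 and 850 genes. Shares and gene counts under a wider or narrower distance, bin or window, and region counts from fewer peaks, move by construction. Keeping touching peaks apart could change no value, because the smallest gap possible was 10 bp. Its values are among those kept. For the ranks, the share followed by the same set and the values with equal lists, the cause was not tested. Leaving out gene-poor bins was chosen after seeing the data. No paired analysis was possible because each accession had 1 library, and leaving out a library would empty a set. Depth and calling threshold are unknown, and no alternative varied them.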

Other observations

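Gene families, found by symbol, are given beside the 2.3% of all protein-coding genes with a Bay-0 and Tsu-1 member and the 1.94% with a Bur-0 and Est-1 member, and no test compares them. Of 224 cytochrome P450 genes, 6 (2.68%) had a Bay-0 and Tsu-1 member in their windows, a share near that of all genes, and none a Bur-0 and Est-1 member. They were CYP71B9, CYP98A3, CYP71B25, CYP79B2, CYP78A7 and CYP71B13. CYP98A3, an enzyme of lignin and phenylpropanoid synthesis, had a signal of 115 in Bay-0 (rank 30.9) and 47 in Tsu-1 (rank 5.55), and CYP71B9 had 180 and 96 (ranks 59.0 and 43.1). Of 121 MYB genes, 5 (4.13%) had a Bay-0 and Tsu-1 member and 1 (0.826%), MYB48, a Bur-0 and Est-1 member. Of 47 glutathione transferase genes, 1 had a Bay-0 and Tsu-1 member and 3 a Bur-0 and Est-1 member, with GSTF7 in both counts.

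Some members ranked very differently in the 2 lists that called them. The ranks differed by over 50 in 4 of 695 Bay-0 and Tsu-1 members and 19 of 544 Bur-0 and Est-1 members, beside 108 and 248 of the 19642 regions in all 4 lists. In gene-poor bins, a Bur-0 and Est-1 region inside AT2G08986 had 510 in Bur-0 and 101 in Est-1 (ranks 98.0 and 21.1). Another, on chromosome 5, had 611 and 113 (ranks 99.1 and 26.0). Its nearest protein-coding gene, AT5G30520, was 90203 bp away, and the pseudogene AT5G31804 was nearer at 5277 bp. Bay-0 and Tsu-1 peaks stood 250 bp from this region. On chromosome 3, a Bay-0 and Tsu-1 region nearest to AT3G43710 had 81 in Bay-0 and 350 in Tsu-1 (ranks 13.9 and 96.2).

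A smaller difference belonged to the member with the highest single rank of the Bur-0 and Est-1 set. At the start of chromosome 2, this region at AT2G01008 (2821 to 2970) had a signal of 1535 in Bur-0 (rank 99.9) and 257 in Est-1 (rank 71.7).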
